A study of Mus musculus with 12 samples.

Results

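MicroRNAs (miRNAs) that inflammatory signalling induces in immune cells were followed in mouse blood. They are mmu-miR-146a, mmu-miR-146b, mmu-miR-155, mmu-miR-21, mmu-miR-132 and mmu-miR-147, written below without the prefix for mouse. They were chosen by name, as the rows of the deposited intensity table with exactly these IDs, and all 6 were found among its 710 mouse miRNAs. The table holds 1 array for each of 12 mice, 6 labelled tff3 KO and 6 labelled wild type. Each genotype has 3 males and 3 females, according to the labels. The sources used here do not give the strain, age or health of the mice or the nature of the Tff3 allele, and the series' design text calls the knockouts knock-downs. No inflammatory stimulus is named in the labels. Tff3 codes for trefoil factor 3, a peptide that goblet cells of the gut secrete with mucus and that takes part in repair of the mucosa. The array carries miRNAs only, so loss of Tff3 itself could not be checked. Whole peripheral blood was used, in which fewer cells of a type and less miRNA per cell cannot be told apart. The red cell miRNAs miR-451 and miR-486, the neutrophil miRNA miR-223 and the lymphocyte miRNA miR-150 were above noise on all 12 arrays. The general leukocyte miRNA miR-142-3p, set for the same check, was above noise on 5 of the 12. miR-142-5p, the other general leukocyte marker listed, was above noise on all 12.

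A miRNA is loaded into an Argonaute protein and guides it to messenger RNAs that pair with its seed, the short stretch near its 5′ end. Toll-like receptor and cytokine signals switch on several miRNA genes through the transcription factors NF-kB, STAT3, AP-1 and CREB. Some of their products, miR-146a above all, feed back on the signalling proteins, while others, such as miR-155, favour the inflammatory response.

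The mature sequences are shown because they set which of the miRNAs can share targets and which probes face near-identical molecules. They come from RefSeq (build GRCm38.p6), in which 6 of the 7 arms sought were matched, including miR-212 as the neighbour of miR-132, and miR-147-3p was the other. An array ID without an arm was read as the guide arm of the current name. Each sequence runs 5′ to 3′ with the seed, bases 2 to 8, in capitals.
miR-146a-5p: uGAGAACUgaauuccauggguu
miR-146b-5p: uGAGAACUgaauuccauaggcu
miR-155-5p: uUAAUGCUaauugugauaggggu
miR-21a-5p: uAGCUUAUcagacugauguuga
miR-132-3p: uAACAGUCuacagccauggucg
miR-212-3p: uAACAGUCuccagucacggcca

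miR-146a and miR-146b have the same seed and are identical at 20 of 22 bases. Counted from the 5′ end, with miR-146a first, they differ by G18A and U21C. The probes for them thus face molecules that differ only towards the 3′ end, the probe sequences are not in the files, and how far each probe also captures the other miRNA was not tested. miR-132 and miR-212 share a seed as well and are identical at 17 of 22 bases, with the differences A10C, C14U, U17C, U20C and G22A. miR-155 shares its seed with no other mature mouse miRNA of the RefSeq table, and miR-21 shares its seed with miR-21c. 

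The genes of the miRNAs lie on 4 chromosomes (RefSeq, GRCm38.p6). Mir146, the gene of miR-146a, is at chr11:43374397-43374461 on the minus strand, and Mir146b is at chr19:46342762-46342870 on the plus strand, within the interval of the long noncoding RNA gene Gm36493. Mir155 is at chr16:84714140-84714204 on the plus strand, within Mir155hg, the long noncoding host gene also called Bic. Mir21a is at chr11:86584067-86584158 on the minus strand, within the interval of the protein-coding gene Vmp1. Mir132 at chr11:75173682-75173747 and Mir212 at chr11:75173388-75173478, are both on the plus strand, with 204 bases from the end of Mir212 to the start of Mir132. Mir147 is at chr2:122640803-122640881 on the plus strand, within the protein-coding gene AA467197, also named Nmes1.

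The 6 miRNAs differed widely in how far they stood out from noise, and this limits what can be said of each. Noise was taken per array as the size of its most negative intensity, 24 to 56 in knockouts and 28 to 64 in wild types. miR-21 was bright, with an intensity of 1493 to 2557 in knockouts and 688 to 3721 in wild types, and it was brighter than 90.7% to 93.7% of all miRNAs on every array. miR-146a and miR-132 were near the middle of the array's range but above noise on all 12 arrays. miR-146a had intensities of 112 to 268 in knockouts and 96 to 320 in wild types, and miR-132 of 124 to 304 in knockouts and 140 to 252 in wild types. miR-146b was above noise on 10 of 12 arrays, 5 of each genotype, with 52 to 160 in knockouts and 32 to 116 in wild types. miR-155 was above noise on 7 arrays, 5 knockouts and 2 wild types, with 24 to 60 in knockouts and 4 to 80 in wild types. miR-147 was above noise on 5 arrays, 3 knockouts and 2 wild types, with 8 to 88 in knockouts and 4 to 48 in wild types. Brightness here is that of a probe and does not rank the miRNAs by abundance.

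**Figure D1:**
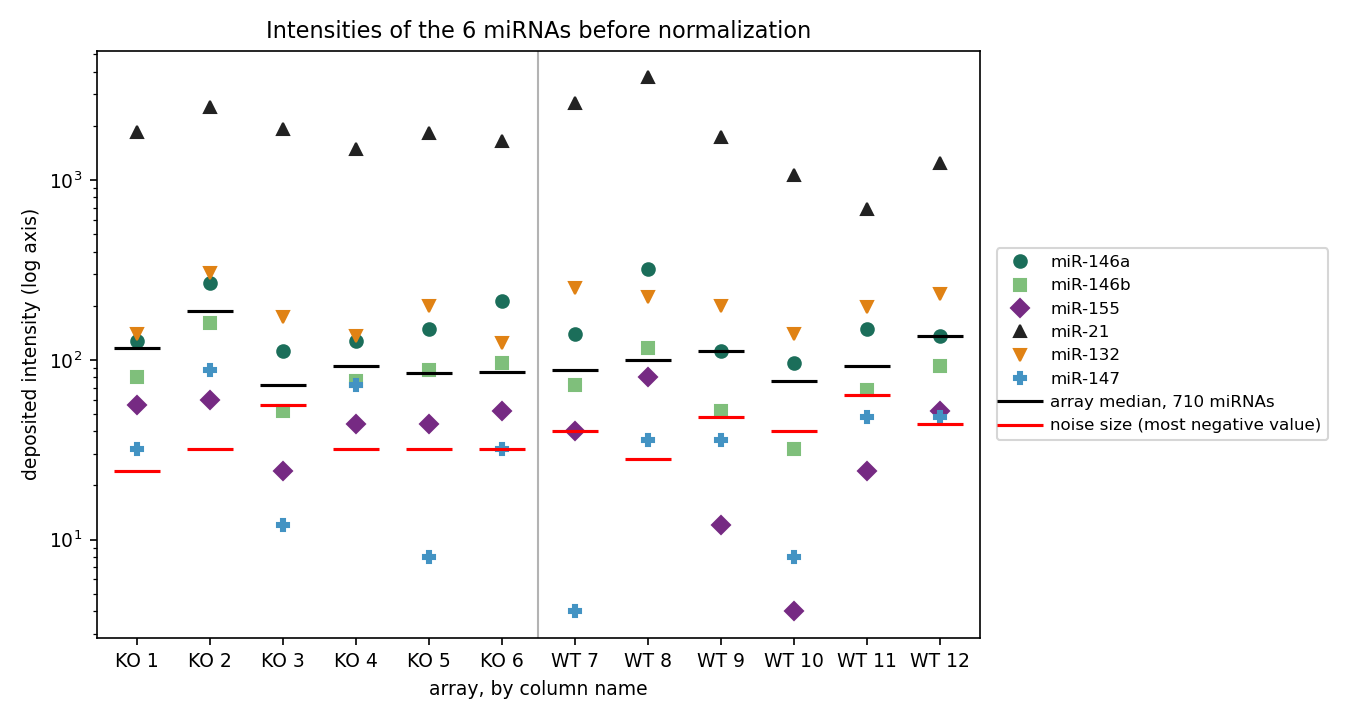
Deposited intensity (vertical log axis) of the 6 miRNAs on each array (horizontal axis, 6 knockouts left and 6 wild types right), with the median of all 710 miRNAs as a black bar and the array's noise size as a red bar. miR-21 lies far above both bars on every array, while miR-155 and miR-147 lie below the median on all 12 and partly below the noise.

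Arrays differed in overall brightness, with a summed intensity of 472963 to 814468 in knockouts and 391740 to 1111470 in wild types. Intensities were therefore quantile-normalized, and a level below is log2(normalized intensity + 50), a scale that understates changes of dim miRNAs. Genotypes were compared with limma over all 710 miRNAs, two-sided, with Benjamini-Hochberg adjustment and a threshold of 0.05, and differences are knockout minus wild type.

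The genotypes did not differ detectably in any of the 6 miRNAs. miR-146a, which NF-kB induces and which represses the receptor adaptors TRAF6 and IRAK1, had levels of 7.38, 7.68, 7.73, 7.59, 7.78 and 8.11 in knockouts 1 to 6. In wild types 7 to 12 its levels were 7.76, 8.17, 7.25, 7.45, 7.83 and 7.29. The wild types spanned the knockouts' whole range, with their highest value in wild type 8 and their lowest in wild type 9. Knockout blood averaged 7.71 ± 0.24, against 7.62 ± 0.36 in wild-type blood (SD, 6 mice each). This is a log2 difference of 0.09 ± 0.18 (standard error, limma adjusted p = 0.890).

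miR-146b, its paralogue from another chromosome, had levels of 6.93, 7.07, 7.02, 7.11, 7.29 and 7.37 in knockouts 1 to 6. In wild types 7 to 12 it was at 7.13, 7.33, 6.50, 6.57, 6.98 and 6.87. Wild types 9, 10 and 12 lay below every knockout, wild types 7, 8 and 11 among them, and all 6 knockouts lay above the wild-type mean. Knockout blood averaged 7.13 ± 0.17, against 6.90 ± 0.32 in wild-type blood (SD, 6 mice each). This is a log2 difference of 0.24 ± 0.16 (standard error, limma adjusted p = 0.722), or a fold of 1.18.

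miR-155, which is cut from the Bic transcript of activated lymphocytes and macrophages and represses SOCS1, had levels of 6.63, 6.18, 6.50, 6.63, 6.79 and 6.82 in knockouts 1 to 6. In wild types 7 to 12 it was at 6.73, 7.06, 5.87, 6.00, 6.36 and 6.50. The highest value and the 2 lowest were all in wild types, so the groups overlapped fully. Knockout blood averaged 6.59 ± 0.23, against 6.42 ± 0.45 in wild-type blood (SD, 6 mice each). This is a log2 difference of 0.17 ± 0.20 (standard error, limma adjusted p = 0.833).

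miR-21, which STAT3 and AP-1 induce and which represses PDCD4, was at 11.05, 10.90, 11.10, 11.05, 10.96 and 10.42 in knockouts 1 to 6. In wild types 7 to 12 it was at 10.96, 11.17, 11.05, 10.62, 10.24 and 10.92. Of the knockouts 5 lay between 10.90 and 11.10 and knockout 6 stood below them, while the wild types were spread. Knockout blood averaged 10.91 ± 0.25, against 10.83 ± 0.34 in wild-type blood (SD, 6 mice each). This is a log2 difference of 0.09 ± 0.18 (standard error, limma adjusted p = 0.890).

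miR-132, a CREB target studied mostly in neurons, was the only one of the 6 with a negative difference. Its levels were 7.46, 7.86, 8.16, 7.65, 8.05 and 7.60 in knockouts 1 to 6. In wild types 7 to 12 they were 8.32, 7.86, 7.94, 7.86, 8.13 and 7.98. Knockouts 1, 2, 4 and 6 lay below every wild type, knockout 2 by a margin lost in rounding, and knockouts 3 and 5 lay within the wild types' range. Knockout blood averaged 7.80 ± 0.27, against 8.01 ± 0.18 in wild-type blood (SD, 6 mice each). This is a log2 difference of -0.22 ± 0.16 (standard error, limma adjusted p = 0.740).

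miR-147, which Toll-like receptor ligands induce in mouse macrophages, was at 6.12, 6.50, 6.23, 7.06, 6.16 and 6.51 in knockouts 1 to 6. In wild types 7 to 12 it was at 6.01, 6.49, 6.25, 6.12, 6.71 and 6.45. Knockout 4 was the highest array, and all others of both genotypes lay within one range near the noise. Knockout blood averaged 6.43 ± 0.35, against 6.34 ± 0.26 in wild-type blood (SD, 6 mice each). This is a log2 difference of 0.09 ± 0.18 (standard error, limma adjusted p = 0.889).

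**Figure D2:**
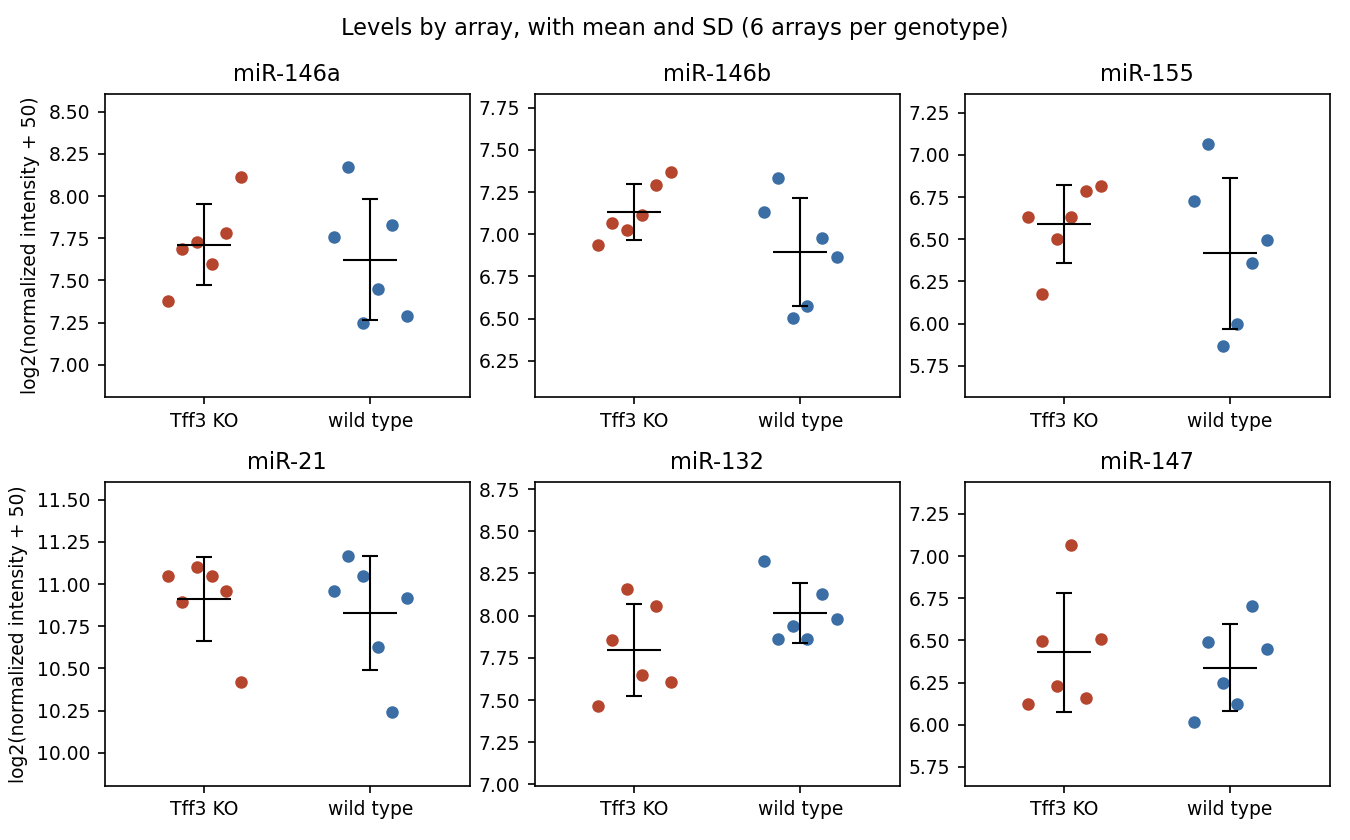
Level, as log2(normalized intensity + 50), of each of the 6 miRNAs (1 panel each, all spanning the same range of log2 units) in 6 Tff3 knockouts (left) and 6 wild types (right). Points are arrays in column order, and bars give mean and SD. The groups overlap in every panel, and miR-132 is the one whose knockout mean lies below the wild-type mean.

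In all, limma called 0 of the 6 miRNAs, and 0 had an unadjusted p under 0.05. Over all 710 miRNAs it called 0 (0%), and 9.01% had an unadjusted p under 0.05. The difference was above 0 for 5 of the 6, against 49.4% of all miRNAs. The median difference was 0.09 for the 6 and -0.0015 for all miRNAs, and the median size of a difference was 0.13 for the 6 and 0.16 for all. None of the 6 had groups that did not overlap, and 0.704% of all miRNAs did. Exact two-sided permutation tests over all 924 arrangements of the 12 arrays gave p-values of 0.136 for miR-132 and 0.145 for miR-146b, and of 0.415 to 0.653 for the other 4. The 95% confidence intervals were -0.29 to 0.47 for miR-146a, -0.11 to 0.58 for miR-146b and -0.25 to 0.59 for miR-155. They were -0.29 to 0.46 for miR-21, -0.55 to 0.11 for miR-132 and -0.29 to 0.47 for miR-147. Differences within these intervals are compatible with the 6 arrays per genotype.

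For miR-146b, wild types 7 and 8 lay above wild types 9 to 12, and the same held for miR-155. For miR-146a these columns overlapped, with 7.83 in wild type 11 and 7.76 in wild type 7. The split was not tested. miR-146b averaged 7.13 ± 0.17 in the 6 knockouts (SD), against 7.23 in wild types 7 and 8 and 6.73 ± 0.23 in wild types 9 to 12 (SD). miR-155 averaged 6.59 in knockouts, 6.90 in wild types 7 and 8 and 6.18 in wild types 9 to 12. For miR-146a the same averages were 7.71, 7.96 and 7.45, and for miR-21 they were 10.91, 11.06 and 10.71. With columns 1 to 8 and 9 to 12 as a covariate, a split known from earlier results of these data, the knockouts were set against wild types 7 and 8 alone. The log2 difference was then -0.25 for miR-146a, -0.10 for miR-146b, -0.30 for miR-155 and -0.15 for miR-21, each opposite in sign to the fit without it. It was -0.29 for miR-132 and 0.18 for miR-147. No label names columns as a batch, and column position and mouse cannot be told apart. By the order of levels, wild types 7 and 8 match the male wild types 1 and 2 of the authors' own normalized values. Wild types 9 to 12 match male 3 and females 4 to 6. The split thus overlaps with sex, and the part of sex in it was not tested.

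None of the passenger strands and cluster neighbours passed. Of 9 IDs listed, 3 were on the array, miR-146b*, miR-21* and miR-212, all above noise on 12 arrays. miR-212, which is cut from the same transcript as miR-132, averaged 7.36 ± 0.15 in knockout blood, against 7.60 ± 0.22 in wild-type blood (SD, 6 mice each). Its log2 difference was -0.24 ± 0.14 (standard error, limma adjusted p = 0.638), next to -0.22 for miR-132. miR-146b* averaged 7.92 ± 0.17 in knockout blood, against 7.84 ± 0.34 in wild-type blood. miR-21* averaged 7.97 ± 0.41 in knockout blood, against 7.80 ± 0.32 in wild-type blood. Their log2 differences were 0.08 and 0.18.

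A list of 14 other miRNAs linked to inflammatory signalling, all of them measured, had 0 called, 6 differences above 0 and 8 below. Its median difference was -0.06, against -0.0015 for all miRNAs. The smallest p-values in it were those of miR-222, miR-221 and miR-9. miR-222, which with its cluster partner miR-221 represses the cell cycle inhibitor p27 in human cells, averaged 10.62 ± 0.25 in knockout blood, against 10.99 ± 0.27 in wild-type blood (SD, 6 mice each). miR-221 averaged 7.01 ± 0.44 in knockout blood, against 7.46 ± 0.38 in wild-type blood. Their log2 differences were -0.37 and -0.45, with limma adjusted p-values of 0.50 and 0.535. miR-9, which lipopolysaccharide induces in human monocytes and neutrophils, was above noise on 1 of 12 arrays. It averaged 5.96 ± 0.43 in knockout blood, against 5.45 ± 0.56 in wild-type blood. Of 20 miRNAs typical of blood cells, liver, muscle or stroma, limma called 0. An unadjusted p under 0.05 was found for 3 of the 20, against 9.01% of all miRNAs, and a difference above 0 for 9, against 49.4%. The 3 were named after their values were seen. They were the lymphocyte markers miR-181a (log2 difference -1.08) and miR-342-3p (-0.60) and the red cell marker miR-144 (1.02). Their limma adjusted p-values were 0.135, 0.535 and 0.415. Neither list moved as one. The remaining lymphocyte marker, miR-150, had a difference of 0.16. The remaining red cell markers had -0.09 for miR-451, -0.04 for miR-486 and 0.14 for miR-16.

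**Figure D3:**
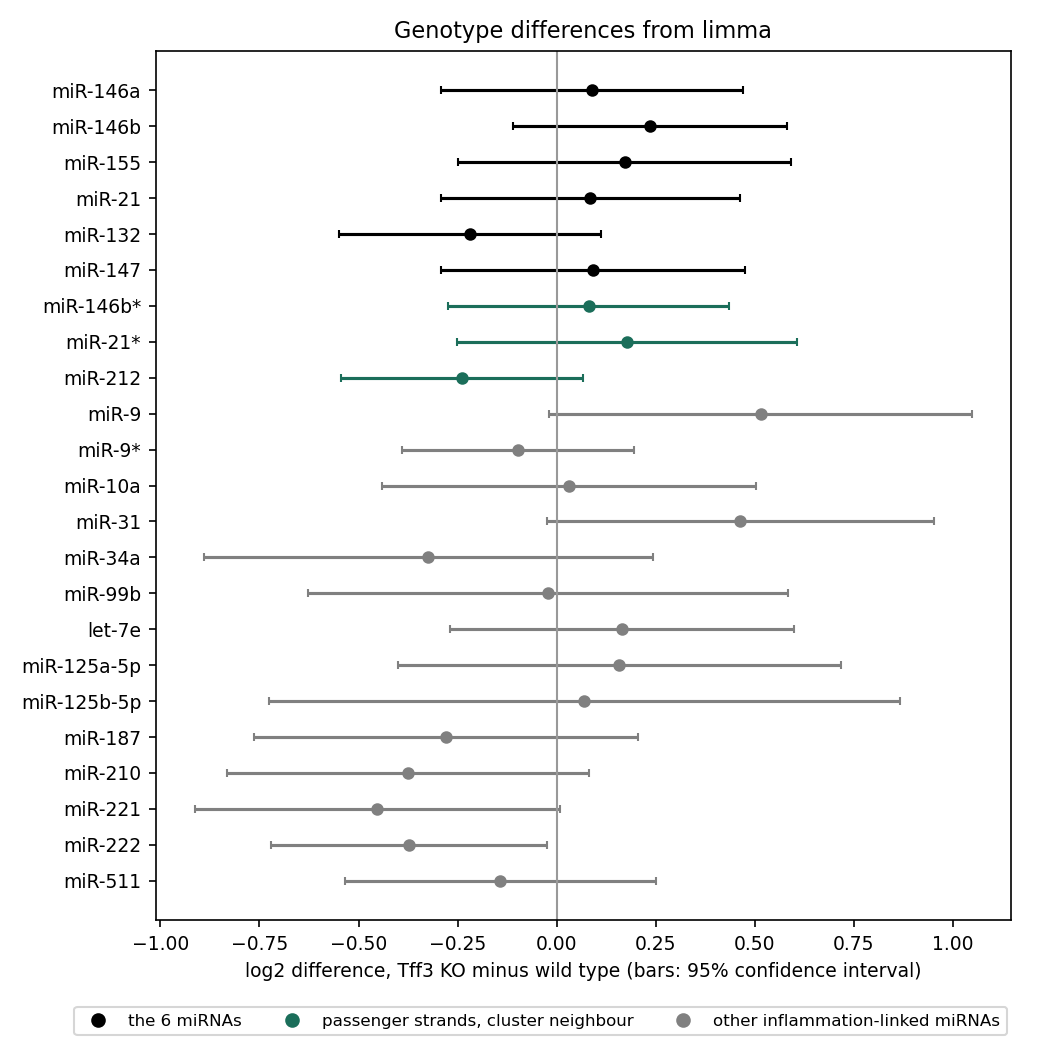
Log2 difference (horizontal axis, Tff3 knockout minus wild type) with its 95% confidence interval from limma for the 6 miRNAs (black), the passenger strands miR-146b* and miR-21* with the cluster neighbour miR-212 (green) and 14 other inflammation-linked miRNAs (grey). The intervals of the 6 all include 0, and miR-132 and miR-212 lie on the same side.

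miR-146b varied together with miR-146a and with miR-155 from mouse to mouse, and no relation of miR-21, miR-132 or miR-147 passed the test. With scaling to the 75th percentile in place of quantile normalization, or without wild type 9, 0 relations passed by both measures. Pearson's r and Spearman's rho over the 12 arrays were computed for the 15 pairs among the 6 miRNAs and for each of the 6 with miR-223, miR-142-3p, miR-150 and miR-451. That made 39 relations, with two-sided p-values from 100000 permutations adjusted over all 39, and 3 passed by both measures. miR-146a and miR-146b had r = 0.84 (permutation p = 0.00096, adjusted 0.0187) and rho = 0.84 (permutation p = 0.0012, adjusted 0.0156). Within genotypes r was 0.87 in knockouts and 0.87 in wild types, and it was 0.75 without wild types 8 and 9, the arrays farthest from the median of miR-146a. With scaling to the 75th percentile r was 0.59 (permutation p adjusted to 0.254) and rho 0.57 (adjusted to 0.285). Without knockout 6 or wild type 9 the adjusted p was 0.0581 or 0.0737.

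miR-146b and miR-155, which share neither seed nor chromosome, had r = 0.89 (permutation p = 0.00021, adjusted 0.00819) and rho = 0.89 (permutation p = 0.00036, adjusted 0.00702). Within genotypes r was 0.59 in knockouts and 0.98 in wild types. It was 0.71 without wild types 9 and 10, the arrays farthest from the median of miR-146b, and 0.68 over the arrays of columns 1 to 8. Without wild type 9 r was 0.83, with an adjusted p of 0.0737. With scaling to the 75th percentile r was 0.87 (permutation p adjusted to 0.0435) and rho 0.71 (adjusted to 0.126), so the relation passed by r alone. Wild types 9 and 10 held the lowest levels of both miRNAs, and there miR-155 was below noise on both arrays and miR-146b on 1. miR-146a and miR-155 had r = 0.68 and rho = 0.70, with permutation p-values adjusted to 0.116 and 0.0941, and did not pass.

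miR-146a also followed miR-150, the miRNA of mature B and T cells, with r = 0.78 (permutation p = 0.00235, adjusted 0.0306) and rho = 0.81 (permutation p = 0.00199, adjusted 0.0194). Within genotypes r was 0.82 in knockouts and 0.89 in wild types, and it was 0.81 without wild types 8 and 9. The adjusted p was between 0.0539 and 0.117 without knockout 2, knockout 3, knockout 6, wild type 7, wild type 9, wild type 10 or wild type 12, each left out alone. With scaling to the 75th percentile r was 0.74 (permutation p adjusted to 0.0452) and rho 0.76 (adjusted to 0.126), and without normalization r was 0.68 (adjusted to 0.0763). For miR-146b and miR-150 rho was 0.89 (permutation p = 0.00021, adjusted 0.00702) and r 0.67 (permutation p = 0.0179, adjusted 0.116). For miR-155 and miR-150 rho was 0.75 (permutation p = 0.00641, adjusted 0.050) and r 0.44 (permutation p = 0.149, adjusted 0.647). The mean level of the 3 lymphocyte markers miR-150, miR-342-3p and miR-181a was 8.83 to 10.27 in knockouts and 9.86 to 10.76 in wild types, and its part in these relations was not tested. The list did not move as one, since the log2 difference between genotypes was 0.16 for miR-150, -0.60 for miR-342-3p and -1.08 for miR-181a (limma adjusted p = 0.885, 0.535 and 0.135). Relations of the 6 miRNAs with miR-342-3p and miR-181a were added after the data were seen, and 0 of these 12 passed. miR-146a had r = 0.17 with miR-342-3p and r = 0.02 with miR-181a (permutation p adjusted over the 12 to 0.891 and 0.957), with rho = 0.23 and 0.08 (adjusted to 0.806 and 0.949). For these 2 relations r was also computed within each genotype. In knockouts r was 0.85 with miR-342-3p and 0.95 with miR-181a, and in wild types it was -0.018 and -0.12. Neither these values, from 6 mice each, nor the contrast between genotypes was tested. With the neutrophil miRNA miR-223, miR-146a had r = 0.68 and rho = 0.48, with permutation p-values adjusted to 0.0799 and 0.517. That r was 0.42 without wild types 8 and 9, and wild type 8 held the highest miR-223, at 13.11, and the highest miR-146a and miR-155. With miR-142-3p and miR-451, miR-146a had r = -0.31 and r = -0.055 (permutation p adjusted to 0.758 and 0.942). With miR-142-3p, above noise on 5 of 12 arrays, r was -0.86 in knockouts and 0.0099 in wild types. With miR-451 it was -0.52 in knockouts and 0.46 in wild types.

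**Figure D4:**
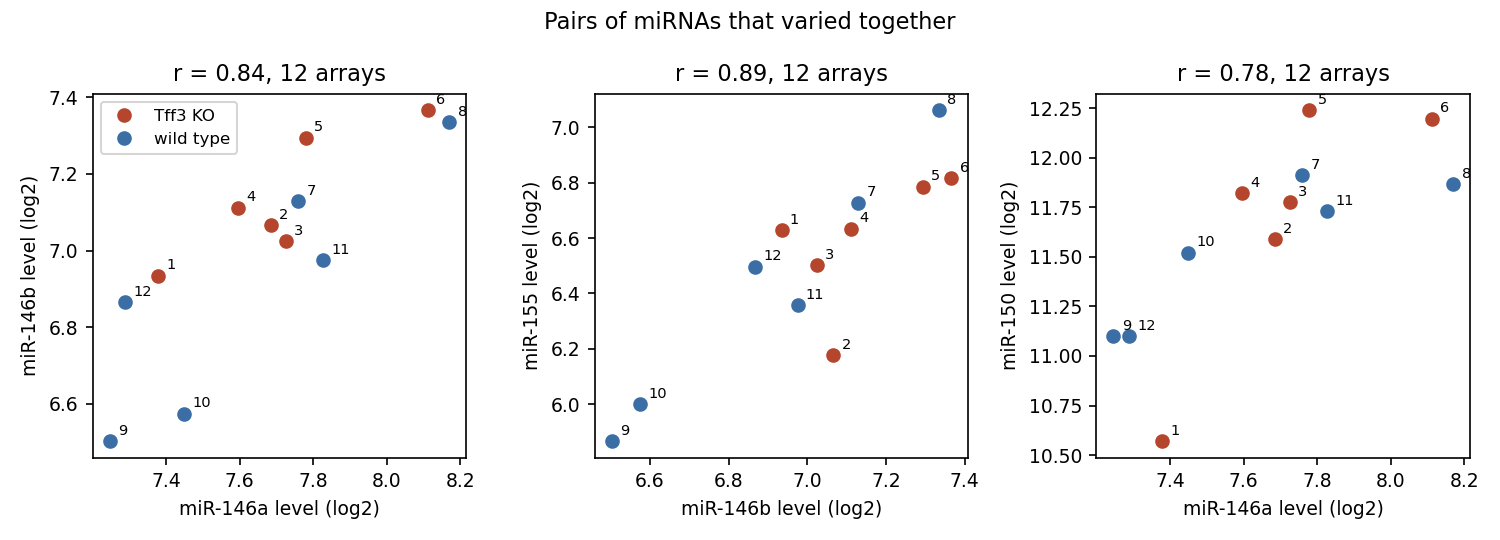
Levels (log2) of pairs of miRNAs on the 12 arrays, with miR-146a against miR-146b (left), miR-146b against miR-155 (middle) and miR-146a against miR-150 (right). Knockouts are red, wild types are blue, numbers are those of the columns and r is Pearson's. Points of both genotypes lie along the same rising band, with wild types 9 and 10 at its low end in the first and second panels.

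Among the 355 miRNAs at or above the median level, miR-297b-3p of the Sfmbt2 cluster had the pattern most like 3 of the 6 over 12 arrays. Its r was 0.84 with miR-146a, 0.93 with miR-146b and 0.84 with miR-155. The second most alike were miR-466d-3p for miR-146a (r = 0.82) and for miR-155 (r = 0.83) and miR-129-3p for miR-146b (r = 0.87). miR-146b, miR-155 and miR-147 were below the median level and so were not among the 355. miR-146b had r = 0.89 with miR-155, above miR-297b-3p, and 0.84 with miR-146a, above miR-466d-3p. miR-297b-3p was at 7.12 to 7.85 in knockouts, against 7.60 and 7.86 in the wild types numbered 7 and 8 and 6.75 to 7.12 in those numbered 9 to 12, the same division as for miR-146b and miR-155. miR-21 was most like miR-331-3p and miR-669l (r = 0.70 each), miR-132 like miR-93* (r = 0.74) and miR-328 (r = 0.73), and miR-147 like miR-24 and miR-879 (r = 0.70 each). These values were chosen for their size. The arrays were normalized together and differed in overall brightness, and the part of either in these values was not tested.

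Sex was set beside genotype only in the authors' normalized table, whose columns are named by mouse. Its knockout columns kept the rank order of the intensities (Spearman's rho of 1.00 for each), but its target values differ, so its levels, log2(value + 50), are not on the scale used above. miR-21 was at 10.90, 10.81 and 10.30 in female knockouts and 10.90, 10.74 and 10.95 in male knockouts. In wild types it was at 10.50, 10.12 and 10.77 in females and 10.81, 11.01 and 10.90 in males. The 6 males lay within 10.74 to 11.01, and the females reached lower, down to 10.12. Females averaged 10.57 ± 0.31, against 10.88 ± 0.096 for males (SD, 6 mice each). With genotype in the fit, females minus males gave a log2 difference of -0.32 ± 0.15 (standard error, limma adjusted p = 0.384), with a 95% confidence interval of -0.63 to 0.00010.

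Over both genotypes limma called 0 of the 6 miRNAs for sex and 1 of all 710 (0.141%). That miRNA, named after its value was seen, was the liver miRNA miR-122, higher in females by 3.44 on the log2 scale (limma adjusted p = 0.0357), a call lost when knockout 1, knockout 2 or any 1 of the 6 wild types was left out. The differences of females minus males were 0.01 for miR-146a, 0.03 for miR-146b, 0.02 for miR-155, -0.05 for miR-132 and 0.24 for miR-147. They were above 0 for 4 of the 6, against 50.6% of all miRNAs. An unadjusted p under 0.05 was found for 0 of the 6, against 12.3% of all. In the intensity table the column names give sex for the knockouts alone, where limma called 0 of the 6 and 0 of 710 (0%), and 4 of the 6 differences were above 0, against 44.5% of all. Within knockouts the difference was 0.23 for miR-146a, 0.25 for miR-146b and 0.31 for miR-155, with limma adjusted p-values of 0.761 to 0.766. Without normalization it turned to -0.044 for miR-146b. For miR-21 the difference within knockouts was -0.21 (limma adjusted p = 0.778), and leaving out 1 array gave -0.32 to -0.011.

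The sex difference of the miR-146 pair and miR-155 had opposite signs in the 2 genotypes in the authors' normalized table, but the test of that contrast did not pass. miR-155 averaged 6.72 ± 0.10 in female knockouts and 6.40 ± 0.25 in male knockouts, against 6.25 ± 0.27 in female wild types and 6.52 ± 0.63 in male wild types (SD, n = 3 each). The sex difference in knockouts exceeded that in wild types by 0.59 ± 0.39 (standard error, limma adjusted p = 0.735). For miR-146a and miR-146b the interaction was 0.40 and 0.44, with standard errors of 0.33 and 0.31 and adjusted p-values of 0.745 and 0.738. For miR-21, miR-132 and miR-147 it was 0.25, -0.0050 and 0.12. The interaction was above 0 for 5 of the 6, against 47.5% of all miRNAs. limma called 0 of the 6 and 0 of 710 miRNAs (0%) for the interaction, and 5.92% had an unadjusted p under 0.05. The male wild types held both the highest and the lowest miR-155 of the 12 mice, 7.04 and 5.82.

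**Figure D5:**
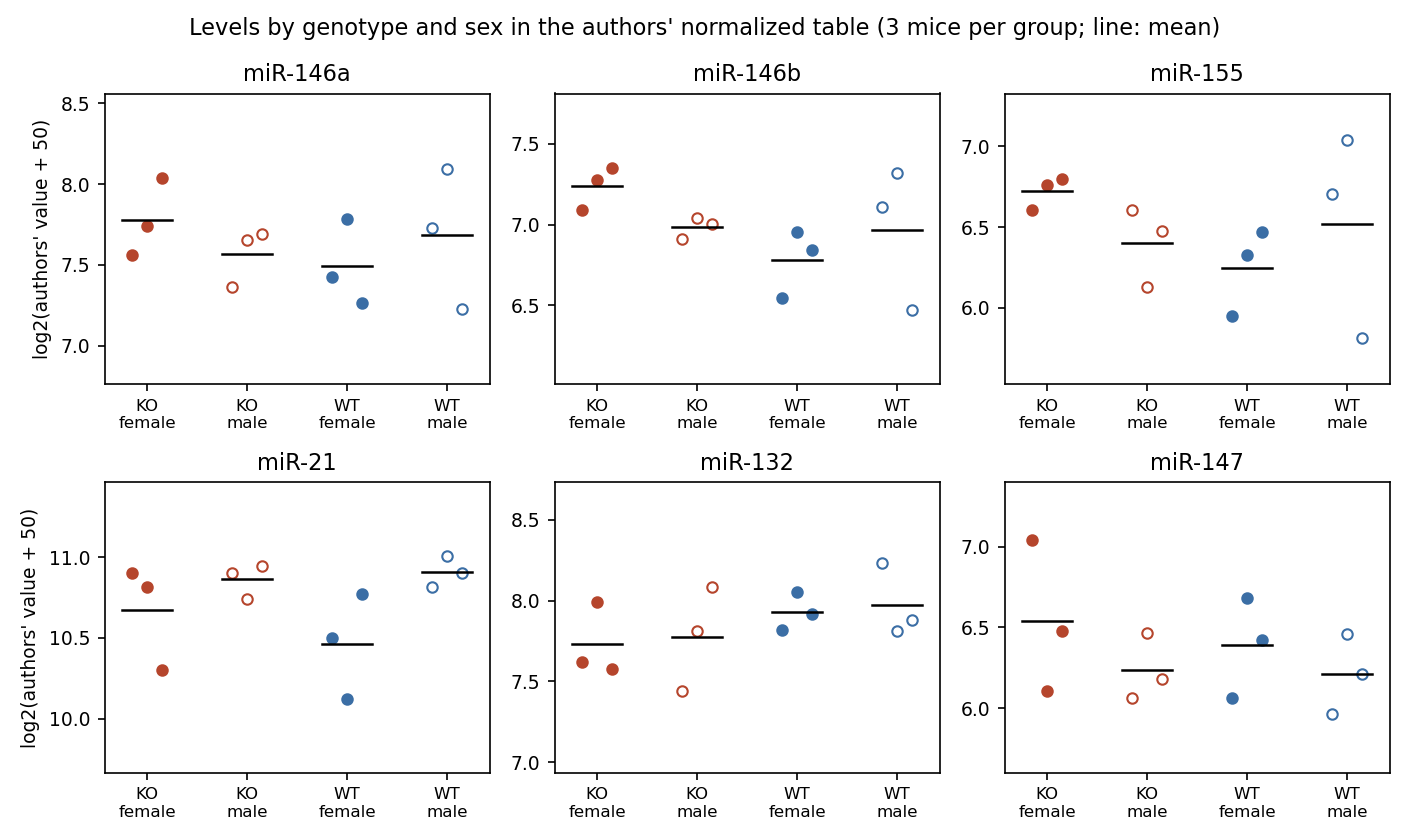
Level, as log2(authors' normalized value + 50), of the 6 miRNAs by genotype and sex, 3 mice per group, with filled points for females, open points for males and a line at the mean. In miR-21 the lowest points are female wild types 4 and 5 and female knockout 6, while female knockouts 4 and 5 lie among the males. In miR-146b and miR-155 the male wild types span nearly the whole range.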

How the data were processed

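Total RNA from blood of 12 mice was hybridised to a miRNA array with biotin labelling by a microfluidic primer extension assay, per the labels' protocols. The authors deposited a table of linear intensities, 710 miRNAs by 12 columns, with values of -64 to 64623 that look background-subtracted and unnormalized. They also deposited a normalized intensity table whose columns share 1 maximum and nearly the same quartiles, with a lowest value of 1. The sources used here give no scanner, background method or array release. The first table counts its wild types from 7 to 12 where the titles count from 1 to 6. By name these columns thus have no sex or replicate number. The levels of the 6 miRNAs in columns 7 to 12 follow the order of wild types 1 to 6 in the normalized table. There 1 to 3 are males and 4 to 6 females. miR-155 was at 6.73, 7.06, 5.87, 6.00, 6.36 and 6.50, against 6.71, 7.04, 5.82, 5.95, 6.33 and 6.47. This match was not used in any fit.

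Intensities were quantile-normalized, transformed as log2(value + 50) and compared by limma 3.58.1 (lmFit and eBayes, R 4.3.3). The fit was also run on simulated arrays with independent errors, as a check of the code only. Sex was fitted on the normalized table. All 710 miRNAs were tested. Permutations and figures were made in Python 3.11.15 (matplotlib 3.10.9). The number of arrays limits precision, as the files give no depth. Blood came from separate mice, per the labels' protocols.

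Named are the 6 miRNAs, the 3 of each list with the smallest genotype p, the 2 most alike for each and the blood markers. Members, lists and the column split were chosen with earlier results of these data known. Same-numbered mice of the 2 genotypes correlated at -0.12 to 0.18 in their deviations from the group means, so the numbers were not taken as pairs.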

Additional observations from a re-analysis of the deposited data

Results flagged for a closer look

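In knockout 6, miR-21 lay apart from the other knockouts. Its level was 10.42, against 10.90 to 11.10 in the other 5, so that it differed from their mean by -0.59 on the log2 scale. The gap to its nearest neighbour exceeded Dixon's 95% criterion for 6 samples, and chance alone sets 1 array apart in this way in about 5% of groups. Over the 6 miRNAs, their passenger strands and miR-212 in both genotypes, 18 groups were examined and 1 met the criterion. The same array held the knockouts' highest levels of the liver miRNA miR-122 (12.34, against 6.68 to 8.41) and of the smooth muscle miRNA miR-145 (10.68, against 6.90 to 7.97), and their part in the miR-21 value was not tested.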

How the results depend on the processing

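The 6 miRNAs passed the threshold for genotype under none of the alternatives, whose smallest limma adjusted p was 0.482, and 6 of 141 such values had the opposite direction. With columns 1 to 8 and 9 to 12 as a covariate the log2 difference was -0.25 for miR-146a, -0.10 for miR-146b, -0.30 for miR-155 and -0.15 for miR-21, which sets the knockouts against wild types 7 and 8 alone. Leaving out 1 array gave -0.032 to 0.19 for miR-21 (negative without wild type 11) and -0.036 to 0.16 for miR-147 (negative without knockout 4). With the replicate block on the authors' normalized values limma called 0 of 710 (smallest adjusted p 0.125), miR-146b was at 0.24, and no call changed. Without 1 array in turn 0 to 1 were called, miR-181b without wild type 12. For sex within knockouts 2 miRNAs were called with an offset of 1, miR-804 and miR-204, and 1 with a trended robust variance, miR-206. Without normalization that difference was -0.044 for miR-146b and -0.091 for miR-147, and leaving out 1 array gave -0.24 to 0.11 for miR-132. For sex over both genotypes 0 to 5 miRNAs were called without 1 mouse, 5 without knockout 3 (miR-122, miR-192, miR-342-3p, miR-451 and miR-878-5p). The differences then ran from -0.069 to 0.12 for miR-146a, -0.052 to 0.14 for miR-146b, -0.10 to 0.17 for miR-155 and -0.12 to 0.021 for miR-132. The interaction ran from -0.17 to 0.15 for miR-132 and from -0.12 to 0.34 for miR-147. None of the 6 passed for sex or the interaction under any alternative run. The correlation alternatives were chosen after the data were seen. Leaving out 1 array gave r of 0.79 to 0.86 for miR-146a and miR-146b, 0.83 to 0.95 for miR-146b and miR-155 and 0.74 to 0.83 for miR-146a and miR-150. Scaling to the 75th percentile gave 0.59 for miR-146a and miR-146b, 0.87 for miR-146b and miR-155 and 0.74 for miR-146a and miR-150, none past the threshold by both r and rho, and no normalization gave 0.68 for miR-146a and miR-150, past it by neither. Without wild type 9 all 3 calls were lost. Relative to each genotype's mean, all 3 relations passed. Where not given, the cause was not tested. Another normalization of the authors' table was not run, since that table is already normalized. The filter at the median level kept miR-146a, miR-21 and miR-132 only, and with intensities near noise, changes of miR-155 and miR-147 are the least well measured.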
